A study of Mus musculus with 2 samples.

Results

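The genes described here are 34 DNA damage repair genes, taken by symbol from the 32285 genes counted in single-cell RNA sequencing of MC38 tumors, a mouse colon carcinoma line. CD45+ cells were sorted from tumors of WT mice. The Control library came from tumors without irradiation, and the IR library from tumors that received 20 Gy once, 4 days before collection. Each library pooled the cells of several tumors, so there was 1 library per group. The labels also name a narrower population, CD45+CD11b+Ly6Chi, whereas T, NK and stromal cells were found in both libraries. There were no replicates, so no difference between Control and IR could be tested, and every interval below is a 95% interval of counting error.

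Cells meet DNA damage in each round of replication as well as after irradiation. The kinases Atm and Atr signal broken or stalled DNA, chromatin around a break is marked through histone H2AX (H2afx), and breaks are then joined directly at their ends or copied from a sister chromatid by homologous recombination. Damaged bases and nicks are repaired by excision, and crosslinks by the Fanconi anemia pathway. Several of these genes are known to be transcribed mainly in S and G2 phase, partly under E2F factors.

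Members were summed in 5 gates made of marker genes. The Control library held 1807 macrophages, 535 monocytes, 415 T cells, 265 NK cells and 51 stromal cells, and the IR library 368, 950, 284, 355 and 41. A further 1606 Control and 1412 IR cells lay outside the gates. Adgre1, a macrophage marker not used by the gates, stood at 151.0 and 128.4 CPM (UMIs scaled to a common total per pool) in Control and IR macrophages. Vcan, also not used by the gates, stood at 123.4 and 114.6 CPM in monocytes and 10.5 and 33.4 CPM in macrophages, Control first. Of the monocyte genes of the gates, Ly6c2 (86.7 and 502.1 CPM) and Plac8 (178.4 and 767.5 CPM) were higher in IR macrophages. Ccr2 alone was lower there (450.2 and 352.6 CPM), and Ly6c2 was also higher in IR T cells (612.7 and 1284 CPM). Cd5 marked the T gate at 110.8 and 99.3 CPM, and Gzma the NK gate at 3484 and 5443 CPM. The stromal gate held little Ptprc, the gene of CD45, at 28.5 and 15.4 CPM, although the sort was for CD45. It held Pdgfrb at 70.0 and 60.1 CPM, and the epithelial gene Epcam was at 0 in both libraries. In each gate, cells with 3 or more UMIs of 21 cycling genes after thinning to 1000 UMIs are called cycling, and cells with 0 such UMIs are called cells without cycling genes. No member was used for a gate or for the cycling call. Among the genes that recur below, H2afx lies on chromosome 9 (44334694 to 44336077), Topbp1 on chromosome 9 (103305215 to 103350428) and Apex1 on chromosome 14 (50924968 to 50927139) of GRCm38, and the counts are per gene.

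Promoters of the members were searched for words of the E2F type (TTTCCCGC, TTTCGCGC, TTTGCCGC and TTTGGCGC, on either strand). RefSeq windows (GRCm38.p6) from 250 bases before to 50 after the start were at hand for 27 of the 34 members, and not for Rad50, Nbn, H2afx, Prkdc, Fancd2, Ddb2 and Xpc. A word stood in 7 of these 27 genes, against 2.60% of all 27025 genes with a window. The 27025 genes were not matched to the members in expression or base composition. The 7 were Topbp1, Chek2, Mdc1, Brca2, Xrcc6, Lig1 and Msh6. Lig1 held its word in only 1 of its windows, 26 bases after the start, and Msh6 held its word 15 bases after the start. Of the 14 windowed members that were higher in cycling Control macrophages by the rule given below, 6 held a word, and of the other 13 members 1 did. The 250 bases before the start are shown for 5 of these genes, 5′ to 3′ on the strand of the gene, with the word in capitals. The Xrcc6 window lies within the longer gene span of the GENCODE annotation. The GENCODE start of Topbp1 (103305215) lies inside the bases shown for it.
Brca2 (chr5:150522371-150522620, plus strand): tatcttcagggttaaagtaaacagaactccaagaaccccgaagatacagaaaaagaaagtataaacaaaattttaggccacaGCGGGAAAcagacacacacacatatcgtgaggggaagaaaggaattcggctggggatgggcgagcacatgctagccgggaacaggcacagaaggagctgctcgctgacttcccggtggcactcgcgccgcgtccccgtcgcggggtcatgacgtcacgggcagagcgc
Topbp1 (chr9:103305077-103305326, plus strand): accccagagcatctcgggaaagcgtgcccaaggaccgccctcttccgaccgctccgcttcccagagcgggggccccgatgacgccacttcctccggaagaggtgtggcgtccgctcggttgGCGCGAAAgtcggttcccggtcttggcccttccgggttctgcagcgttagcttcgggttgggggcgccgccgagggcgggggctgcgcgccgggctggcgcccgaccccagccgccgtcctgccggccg
Chek2 (chr5:110839733-110839982, plus strand): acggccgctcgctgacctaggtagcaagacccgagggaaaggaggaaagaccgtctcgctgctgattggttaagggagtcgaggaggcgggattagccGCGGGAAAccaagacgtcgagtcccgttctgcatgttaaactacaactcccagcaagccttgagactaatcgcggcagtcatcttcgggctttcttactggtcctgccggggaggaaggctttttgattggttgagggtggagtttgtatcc
Xrcc6 (chr15:82016119-82016368, plus strand): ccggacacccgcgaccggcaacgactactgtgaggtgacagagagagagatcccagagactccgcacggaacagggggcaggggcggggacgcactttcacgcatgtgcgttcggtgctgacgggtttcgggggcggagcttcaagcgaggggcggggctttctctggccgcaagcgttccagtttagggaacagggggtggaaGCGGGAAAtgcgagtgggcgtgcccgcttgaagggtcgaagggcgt
Mdc1 (chr17:35841248-35841497, plus strand): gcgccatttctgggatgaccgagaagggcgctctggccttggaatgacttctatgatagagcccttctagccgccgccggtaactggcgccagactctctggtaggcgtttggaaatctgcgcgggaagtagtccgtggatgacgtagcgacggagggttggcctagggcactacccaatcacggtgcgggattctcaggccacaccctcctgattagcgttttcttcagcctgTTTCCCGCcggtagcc
The word lay 168 bases before the RefSeq start in Brca2, 129 in Topbp1, 152 in Chek2, 46 in Xrcc6 and 16 in Mdc1. A match describes the letters of the window and is no binding site measured here.

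Summed repair genes were higher in cycling cells of every gate in both libraries. In Control macrophages the 34 members summed to 839.7 CPM in 250 cycling cells and 356.6 CPM in 1200 cells without cycling genes, a ratio of 2.35 (interval 2.24 to 2.47). In IR macrophages they summed to 717.9 CPM in 17 cycling cells and 308.5 CPM in 303 others, a ratio of 2.33 (2.04 to 2.65). Ratios in the other gates of the Control library were 2.10 (1.70 to 2.59) in monocytes, 2.55 (2.27 to 2.85) in T cells, 2.44 (2.13 to 2.80) in NK cells and 2.63 (2.23 to 3.12) in stromal cells. In the IR library they were 2.84 (2.21 to 3.59), 2.5 (2.20 to 2.84), 2.58 (2.32 to 2.85) and 1.77 (1.5 to 2.09). The intervals of all 10 ratios lay above 1, although the cycling monocytes numbered only 12 and 5. Cycling cells also held more UMIs, with a median of 13430 against 8451 in Control macrophages, and the part of depth in the ratio was not tested.

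**Figure D1:**
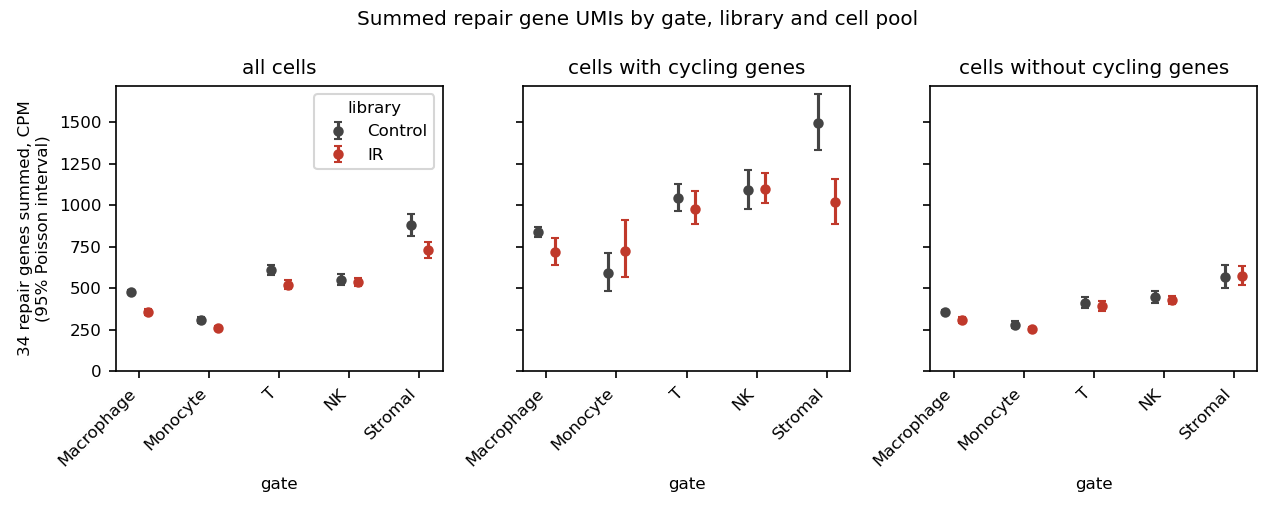
Summed level of the 34 repair genes (CPM, y axis from 0) by gate (x axis), in Control (gray) and IR (red), for all cells, cells with and cells without cycling genes. Points are the summed CPM of 1 library and bars are 95% Poisson intervals. Cycling pools stand above the pools without cycling genes in every gate, 839.7 against 356.6 CPM in Control macrophages.

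Member by member, Control macrophages were the deepest pool and all 34 genes reached 20 UMIs there. A gene was counted as higher or lower when it differed by 1.5-fold or more and the Poisson intervals of the CPM values did not overlap. By this rule 17 of the 34 members were higher and 0 lower in cycling cells, against 9.59% of the 10931 genes counted that were higher and 4.24% that were lower. The median log2 ratio was 0.79 over the members and 0.01 over all these genes. Gates and cycling calls were repeated on 10 further random thinnings, in which some cells enter or leave each pool. Of the 17 members Mdc1 passed in 4 and Atm in 6 of these, and the others in 9 or 10. Mdc1 is 1 of the 6 members with a word in the promoter.

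The 3 Fanconi anemia genes and both recombination genes were higher, with ratios of 7.55 or more. Fancd2, which is ubiquitinated at crosslinks together with Fanci, had 47 UMIs (14.1 CPM) in cycling Control macrophages and 5 UMIs (0.46 CPM) in those without cycling genes, a ratio of 30.4 (12.1 to 98). Fanci stood at 9.87 and 0.65 CPM, a ratio of 15.3 (6.63 to 40.9). Fanca, of the Fanconi core complex, stood at 15.3 and 1.85 CPM, a ratio of 8.25 (4.83 to 14.6). All 3 were under 2 CPM in cells without cycling genes, so their ratios rest on few UMIs in the lower pool. Brca1 stood at 16.5 and 1.48 CPM, a ratio of 11.1 (6.28 to 20.8). Brca2, which acts in homologous recombination, stood at 12.6 and 1.66 CPM, a ratio of 7.55 (4.25 to 13.9).

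Among the signalling genes, 4 of 6 were higher. Topbp1, the activator of Atr, stood at 49.4 and 17.8 CPM, a ratio of 2.77 (2.23 to 3.42). Chek1, the kinase downstream of Atr, stood at 6.88 and 1.94 CPM, a ratio of 3.54 (1.87 to 6.73). Chek2 and Atm had ratios of 2.52 (1.64 to 3.84) and 2.04 (1.41 to 2.93). Atr (1.43, 0.98 to 2.07) and its partner Atrip (1.49, 0.87 to 2.48) did not pass. In the MRN complex, which binds broken ends, Mre11a (1.76) and Rad50 (1.5) passed, and Nbn (1.53, 0.98 to 2.34) did not. Rad50 lay at the cutoff and passed in 6 of 11 processing alternatives, with ratios from 1.38 to 1.70.

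The chromatin genes split. H2afx had 569 UMIs (170.2 CPM) in cycling cells and 224 (20.7 CPM) in cells without cycling genes, a ratio of 8.22 (7.03 to 9.64). Mdc1, which binds the phosphorylated histone, passed with a ratio of 1.79 (1.19 to 2.66). The ubiquitin ligases Rnf8 (1.20, 0.88 to 1.62) and Rnf168 (1.41, 1.0 to 1.95) did not pass. Trp53bp1, which favors end joining, stood at 4.79 and 8.51 CPM, a ratio of 0.56 (0.31 to 0.96) with overlapping Poisson intervals.

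End joining and excision repair genes ran from a ratio of 0.78 (Xpc) to 6.34 (Lig1). In end joining only Xrcc6 (Ku70) passed, at 20.6 and 8.97 CPM and a ratio of 2.30 (1.67 to 3.17). The other 4 end joining members were Prkdc at 1.09 (0.68 to 1.71), Xrcc4 at 1.31 (0.91 to 1.85), Xrcc5 at 1.94 (0.75 to 4.73) and Lig4 at 0.89 (0.35 to 2.0). Lig1, the ligase that seals Okazaki fragments and excision nicks, stood at 115.5 and 18.2 CPM, a ratio of 6.34 (5.33 to 7.56). Its relative Lig3 stood at 6.28 and 5.92 CPM, a ratio of 1.06 (0.62 to 1.76). Xrcc1 passed with a ratio of 2.18 (1.65 to 2.87).

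Parp1, the sensor of nicks, stood at 70.3 and 54.7 CPM, a ratio of 1.28 (1.10 to 1.5). The abasic site nuclease Apex1 stood at 70.3 and 49.3 CPM, a ratio of 1.43 (1.22 to 1.67). Both had intervals apart below 1.5-fold. Rad18, which starts bypass of damaged bases, passed with a ratio of 3.90 (2.5 to 6.12). Msh6 of mismatch repair had a ratio of 1.69 (1.15 to 2.46) with overlapping intervals, and passed in 6 of the further thinnings. The excision repair genes Ercc1 (1.18), Ddb2 (1.08) and Xpc (0.78) did not pass.

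**Figure D2:**
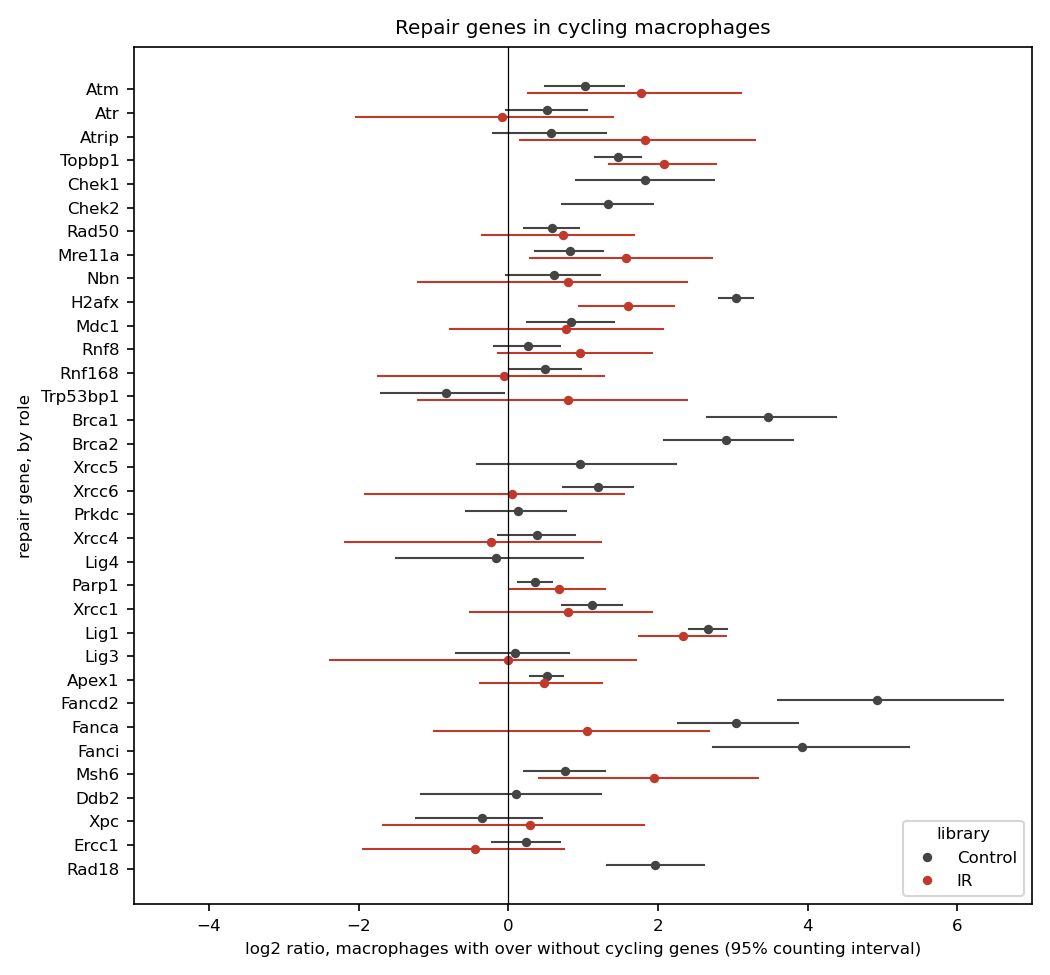
Log2 ratio of CPM in macrophages with over without cycling genes (x axis) for each repair gene (y axis, ordered by role), in Control (gray) and IR (red). Points are ratios, lines are 95% counting intervals, and genes under 20 UMIs over both pools have no point. Fancd2 lies furthest right at a ratio of 30.4 and Trp53bp1 furthest left of the Control points at 0.56.

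In the smaller pools fewer members could be counted. Lig1 was higher by the rule in all 10 pools (5 gates in 2 libraries), H2afx in 9, Topbp1 in 8 and Rad50 in 3, and the other members in at most 2. In T cells H2afx stood at 245.4 CPM in cycling and 28.6 CPM in other Control cells, a ratio of 8.57 (6.02 to 12.5), and at 157.9 and 39.0 CPM in IR cells, a ratio of 4.05 (2.81 to 5.83). In NK cells it stood at 382.3 and 36.8 CPM in Control and at 283.4 and 38.0 CPM in IR. Lig1 ran from a ratio of 3.89 (2.89 to 5.24) in IR NK cells to 10.6 (5.29 to 19.4) in the 5 cycling IR monocytes. Topbp1 had ratios of 4.22 (2.55 to 6.84) in IR macrophages and 2.10 (1.32 to 3.29) in Control NK cells. Topbp1 passed in 4 of the 10 further thinnings in Control NK cells and in 6 in Control stromal cells, and H2afx passed in 7 in IR monocytes. Mre11a passed in cycling IR monocytes on 4 UMIs only, and its direction turned under another random thinning. Over the 10 pools together 19 of the 34 members passed in at least 1, and 17 of these passed in Control macrophages. The share of all genes that passed in at least 1 of the 10 was not counted. No member was lower by the rule in any pool. The number higher was 3 of 23 counted in IR macrophages (6.11% of all genes counted there), 5 of 19 in Control T cells (7.02%), 4 of 20 in IR T cells (6.51%), 4 of 16 in Control NK cells (5.03%) and 7 of 23 in IR NK cells (6.63%). It was 2 of 15 (5.62%) and 3 of 25 (5.83%) in Control and IR monocytes, and 3 of 9 (6.74%) and 2 of 11 (5.66%) in stromal cells. Of all genes, 3.15% were lower in cycling cells of IR macrophages, 4.51% and 5.17% in Control and IR T cells, 3.87% and 5.98% in NK cells, 3.59% and 2.86% in monocytes and 3.66% and 3.87% in stromal cells, where 0 members were.

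Cycling cells were also divided by whether S phase or mitotic genes had more UMIs. Among Control macrophages there were 80 S-leaning and 143 M-leaning cells, and 2 members were higher and 0 lower in the former, against 2.16% and 1.82% of genes. Brca1 stood at 30.3 CPM in S-leaning and 8.21 CPM in M-leaning cells, a ratio of 3.69 (1.96 to 7.27). Lig1 stood at 176.5 and 81.5 CPM, a ratio of 2.16 (1.74 to 2.69). H2afx went the other way at 140.1 and 192.6 CPM, a ratio of 0.73 (0.60 to 0.88). In Control T cells, with 24 and 28 cells, H2afx was at 153.0 and 354.2 CPM, a ratio of 0.43 (0.30 to 0.62), and it was the only member past the rule there, against 2.40% of genes lower and 1.20% higher.

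Of 79 other repair genes, 31 of the 77 counted were higher in cycling Control macrophages and 0 lower. The glycosylase Neil3 (ratio 85.2 on 79 and 3 UMIs), the checkpoint adaptor Clspn (21.5) and the polymerase Polq (20.2) led them. Their median log2 ratio was 0.64, against 0.79 for the members.

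The comparison of IR with Control sets 1 pooled library against another, so irradiation cannot be told apart from other differences between the libraries. Over all cells of a gate, summed repair gene levels were lower in the IR library for macrophages, monocytes and T cells. Macrophages stood at 475.7 CPM in Control and 357.9 CPM in IR, a ratio of 0.75 (0.71 to 0.79). The part that the higher Ly6c2 and Plac8 of the IR macrophage gate had in this ratio was not tested. Monocytes stood at 305.3 and 262.0 CPM, a ratio of 0.86 (0.80 to 0.92), and T cells at 610.5 and 521.8 CPM, a ratio of 0.85 (0.80 to 0.92). NK cells stood at 551.2 and 536.7 CPM, a ratio of 0.97 (0.90 to 1.05). Over the 10 further thinnings the ratio lay between 0.74 and 0.79 in macrophages, 0.82 and 0.90 in monocytes and 0.84 and 0.90 in T cells. A separate random thinning, among the processing alternatives at the end, gave 0.68 in macrophages and 0.97 in T cells, both outside these ranges. Stromal cells stood at 879.4 and 731.3 CPM, a ratio of 0.83 (0.75 to 0.92). Only 6 of the 10 further thinnings gave a stromal ratio below 1, so its direction is not settled. There 1 of 25 members, H2afx, was lower and 0 higher, against 3.17% and 3.61% of genes, and in stromal cells without cycling genes 0 of 13 passed, against 4.52% higher and 3.56% lower.

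Cycling cells were a smaller share of the IR library in thinned macrophages, monocytes and T cells. They made up 13.8% of Control macrophages (exact Clopper-Pearson interval 12.3 to 15.5) and 4.62% (2.71 to 7.29) of IR macrophages. The shares were 13.5% (10.4 to 17.2) and 7.04% (4.35 to 10.7) in T cells, 2.24% (1.16 to 3.89) and 0.53% (0.17 to 1.22) in monocytes, and 9.06% (5.89 to 13.2) and 6.76% (4.38 to 9.89) in NK cells. Stromal shares were 19.6% (9.82 to 33.1) and 14.6% (5.57 to 29.2). Without thinning, 40.8% of Control and 28.0% of IR macrophages held 3 or more cycling UMIs. In T cells (37.1% and 39.1%), monocytes (12.3% and 16.2%), NK cells (38.1% and 40.8%) and stromal cells (41.2% and 68.3%) the unthinned order was the other way. Cells of the IR library were deeper in these gates, with medians of 4690 and 6469 UMIs in T cells.

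Among cells without cycling genes, in the thinning used throughout, the ratio of the libraries was nearer to 1 in 4 of the 5 gates, NK cells being the exception. Macrophages stood at 356.6 CPM in Control and 308.5 CPM in IR, a ratio of 0.87 (0.81 to 0.93). Ratios were 0.91 (0.84 to 0.99) in monocytes, 0.96 (0.85 to 1.07) in T cells, 0.96 (0.87 to 1.06) in NK cells and 1.01 (0.87 to 1.19) in stromal cells. The 10 further thinnings gave 0.82 to 0.92 in macrophages, 0.82 to 0.95 in monocytes and 0.80 to 0.92 in T cells. The ranges of monocytes and T cells overlap those over all cells, and that of macrophages does not. The T cell ratio of 0.96 lay above all 10. When cycling and other IR cells were weighted to the Control share of cycling cells, the ratio over all cells was 0.90 in macrophages, 0.91 in monocytes, 0.95 in T cells, 0.84 in stromal cells and, on the other side of 1, 1.03 in NK cells. The weights were the shares of the thinning used throughout, which for IR T cells and Control NK cells lay outside the range of the further thinnings. Pools without cycling genes were not free of cycling RNA in full counts. There the 21 genes summed to 240.4 CPM in macrophages of the Control and 191.9 CPM in those of the IR library.

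Single members are given first over all cells. In macrophages 3 of 34 members were lower in IR and 0 higher, against 6.70% and 5.13% of genes, so the count over members is near that of all genes. The median log2 ratio was -0.40 over the members and -0.06 over all genes counted. Apex1 stood at 55.3 CPM in Control and 28.7 CPM in IR, a ratio of 0.52 (0.43 to 0.62). H2afx stood at 52.2 and 29.6 CPM, a ratio of 0.57 (0.47 to 0.68). Mre11a stood at 13.6 and 8.45 CPM, a ratio of 0.62 (0.43 to 0.87), but passed in only 2 of the 10 further thinnings. Parp1 (58.5 and 42.5 CPM, 0.73) and Lig1 (42.5 and 30.0 CPM, 0.71) had intervals apart below 1.5-fold. Chek2 (6.93 and 3.78 CPM, 0.55, 0.31 to 0.91) did not pass here and passed in 8 of the 10 further thinnings.

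H2afx and Apex1 then parted in macrophages without cycling genes. H2afx stood at 20.7 (Control) and 23.7 CPM (IR), and its ratio in the 10 further thinnings ran from 0.92 to 1.15. Lig1 likewise stood at 18.2 and 19.9 CPM. Apex1 stood at 49.3 and 27.4 CPM, a ratio of 0.56 (0.44 to 0.69), and was lower by the rule in all 10 further thinnings, both there and over all cells. Control monocytes without cycling genes held Apex1 at 25.4 CPM, and the part of gate composition was not tested. In cycling macrophages Apex1 was at 70.3 and 38.3 CPM, a ratio of 0.54 (0.31 to 0.90) with overlapping Poisson intervals. Parp1 stood at 54.7 and 39.0 CPM in cells without cycling genes, a ratio of 0.71 (0.59 to 0.86). Prkdc, the kinase of end joining, also passed at 7.40 and 3.17 CPM on 80 and 11 UMIs, and passed in 1 further thinning. In all, 2 of 31 members counted were lower there and 0 higher, against 4.85% and 4.89% of genes.

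Ercc1 (14.4 and 19.6 CPM, 1.36, 1.01 to 1.82) and Fanca leaned higher in IR without passing. Fanca stood at 1.85 CPM in Control and 4.62 CPM in IR macrophages without cycling genes. It rested on 20 and 16 UMIs, a ratio of 2.5 (1.21 to 5.07), and passed in 6 of the 10 further thinnings. Free RNA moved in the same direction as some of these values. Droplets without cells held the summed members at 478.4 CPM (445.5 to 513.0) and 345.0 CPM (311.2 to 381.5), Control first, with Apex1 at 51.7 and 31.7 CPM and Parp1 at 41.3 and 16.3 CPM. With free RNA subtracted at 5% of each pool, the Apex1 ratio was 0.51 over all macrophages and 0.55 in those without cycling genes.

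In monocytes 2 of 30 members were lower in IR, against 3.01% of genes, and 0 were higher, against 3.81%. Topbp1 stood at 23.3 CPM in Control and 13.1 CPM in IR, a ratio of 0.56 (0.42 to 0.75). H2afx stood at 33.5 and 18.6 CPM, a ratio of 0.56 (0.44 to 0.71). Both passed in all 10 further thinnings. Among monocytes without cycling genes Topbp1 was at 22.5 and 12.7 CPM, a ratio of 0.57 (0.41 to 0.78), and passed in 6 of the 10. It was the only 1 of 26 members counted to be lower, against 2.12% of genes, and 0 were higher, against 4.19%. H2afx was at 25.7 and 17.8 CPM, a ratio of 0.69 (0.52 to 0.93), and passed in 5. Parp1 stood at 40.4 and 28.9 CPM, a ratio of 0.72 (0.57 to 0.90). In empty droplets Topbp1 was at 38.9 and 18.1 CPM and H2afx at 68.1 and 48.9 CPM. With free RNA subtracted their ratios over all monocytes were 0.57 and 0.54.

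In T cells 1 of 33 members was lower in IR, against 2.06% of genes, and 0 were higher, against 5.60%. Topbp1 stood at 58.4 CPM in Control and 38.2 CPM in IR, a ratio of 0.65 (0.51 to 0.84), and passed in 4 of the 10 further thinnings. H2afx stood at 87.7 and 65.9 CPM, a ratio of 0.75 (0.62 to 0.91). Among T cells without cycling genes H2afx stood at 28.6 and 39.0 CPM, with intervals that overlapped, and 0 of 24 members passed in either direction, against 5.59% of genes higher and 2.06% lower. Atm was at 19.3 and 10.5 CPM over all T cells, a ratio of 0.54 (0.34 to 0.86), did not pass, and passed in 6 of the 10 further thinnings. In NK cells 0 of 28 members passed over all cells, against 2.82% of genes higher and 2.62% lower. Lig1 was higher in IR NK cells without cycling genes, at 23.5 and 42.1 CPM, a ratio of 1.79 (1.18 to 2.79), the only 1 of 22 members to pass, against 2.19% of genes higher and 2.52% lower. Only 1 of the 10 further thinnings gave the same call, with ratios from 1.13 to 3.20.

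Within cycling cells of the thinning used throughout, H2afx was lower in IR than in Control in several gates. In macrophages it stood at 170.2 and 71.8 CPM, a ratio of 0.42 (0.28 to 0.61), where it was the only 1 of 31 members to pass, against 2.51% of genes lower and 3.86% higher. In T cells it stood at 245.4 and 157.9 CPM, a ratio of 0.64 (0.47 to 0.87) and the only 1 of 12 members to pass (1.76% of genes lower, 3.83% higher), and in NK cells at 382.3 and 283.4 CPM, a ratio of 0.74 (0.58 to 0.95). The IR pools held only 17, 20 and 24 cells, and H2afx passed in 3, 2 and 3 of the 10 further thinnings, with ratios from 0.56 to 1.21 in macrophages. That direction is therefore not settled. The mitotic genes summed to 2774 and 2065 CPM in these cycling macrophages, 2791 and 2083 in T cells and 2836 and 2146 in NK cells, Control first. The S phase genes summed to 1689 and 1249, 2220 and 2412, and 1896 and 2215 CPM. The part of cell cycle phase in the H2afx ratios was not tested. Stromal H2afx (292.3 and 87.5 CPM, in 10 and 6 cycling cells) came from the gate whose direction was not settled.

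**Figure D3:**
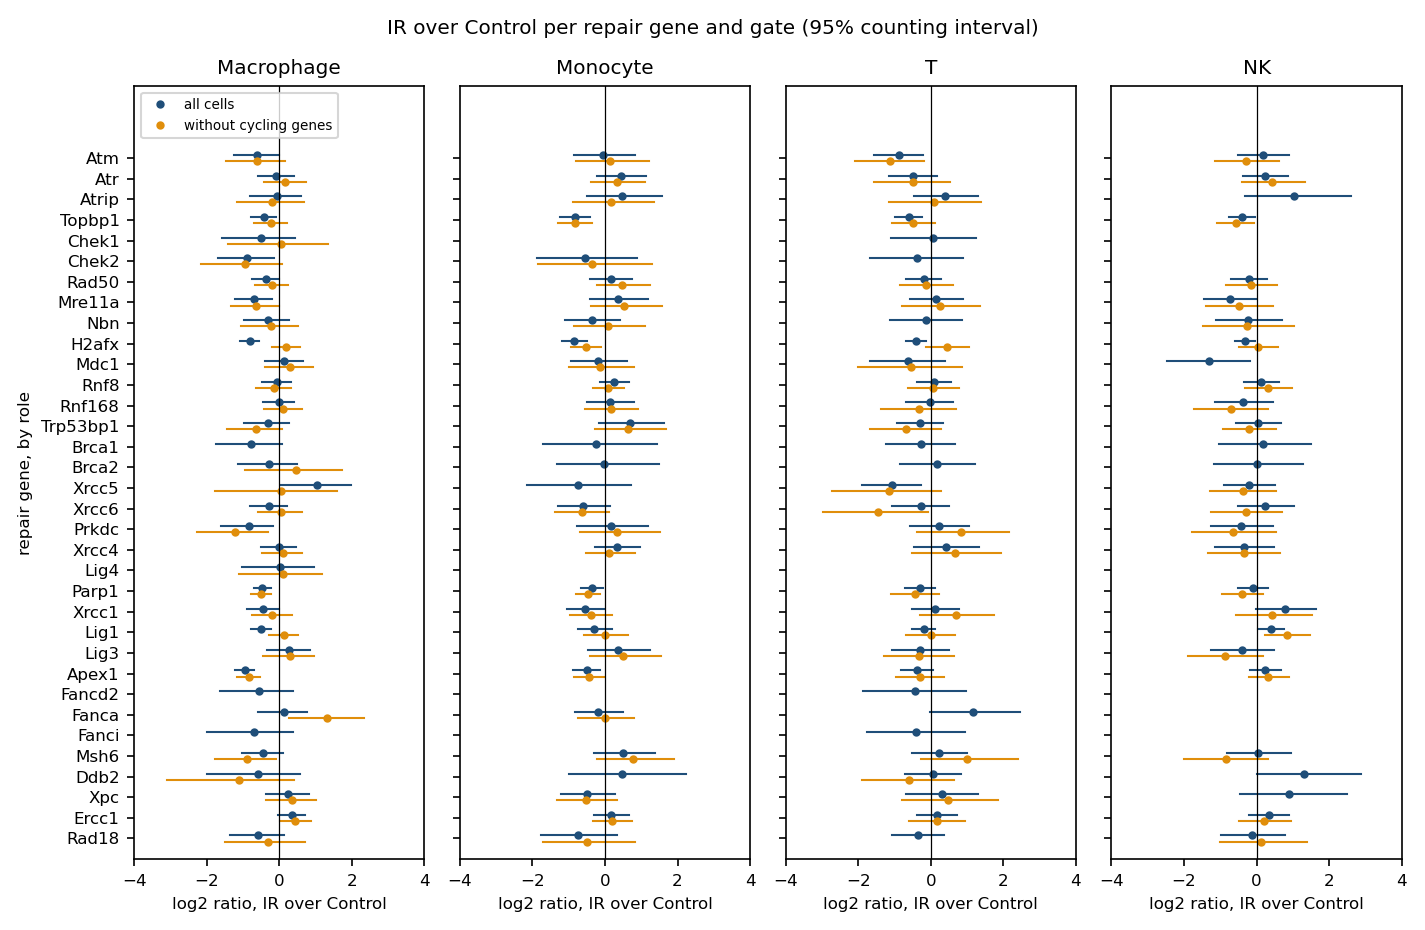
Log2 ratio of CPM in the IR over the Control library (x axis) for each repair gene (y axis, ordered by role) in 4 gates, over all cells (blue) and cells without cycling genes (orange). Points are ratios of 1 library to 1 library and lines are 95% counting intervals, with genes under 20 UMIs left out. In macrophages Apex1 lies left of 0 in both pools, while H2afx does so over all cells only.

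Of the other repair genes, 15 of 79 were lower in IR over all macrophages and 2 higher, against 6.70% and 5.13% of genes, with Rad54l (ratio 0.27) among the lowest. Fancb had 26 UMIs in Control and 0 in IR, but the macrophage pools held 17886202 UMIs in Control and only 4495289 in IR. In macrophages without cycling genes 3 of 72 were lower, among them Ddb1 (0.55) and Rpa1 (0.62), and Aptx was higher (1.78), against 4.85% of genes lower and 4.89% higher.

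Levels also differed between gates among cells without cycling genes. The members summed highest in stromal cells (567.4 CPM in the Control library, 574.7 in the other), then NK cells (445.9 and 427.4 CPM), T cells (410.1 and 392.1 CPM), macrophages (356.6 and 308.5 CPM) and monocytes (280.4 and 255.7 CPM). This order was the same in both libraries, and the intervals of NK and T cells overlapped. Stromal cells were the highest gate for 21 of 34 members in each library, yet their interval was apart from the next gate for only 1 member in Control and 3 in IR. How many of all genes were highest in stromal cells was not counted. All genes counted also leaned higher in stromal cells than in macrophages, with median log2 ratios of 0.22 in Control and 0.30 in IR. The medians of the members were 0.78 and 0.87.

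Xrcc5 (Ku80), the partner of Xrcc6 at broken ends, differed widely between lineages. Macrophages held 1.39 CPM (Control) and 1.44 CPM (IR), and NK cells 14.9 and 11.4 CPM. The NK to macrophage ratio was 10.7 (5.17 to 22.7) in Control and 7.93 (3.02 to 26.3) in IR. Xrcc6 did not share this pattern, at 8.97 CPM in macrophages and 12.5 CPM in NK cells of the Control library. Topbp1 was higher in lymphoid cells, at 17.8 CPM in macrophages, 40.1 in T cells and 47.0 in NK cells of Control, and at 15.3, 28.8 and 31.5 CPM in IR. Trp53bp1 stood at 8.51 CPM in macrophages and 21.2 CPM in NK cells of Control, a ratio of 2.49 (1.56 to 3.86), and the ratio in IR was 3.35 (1.92 to 6.07).

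Parp1 and Apex1 had the opposite order in the Control library. Parp1 stood at 54.7 CPM in macrophages and 30.8 CPM in T cells, a T to macrophage ratio of 0.56 (0.40 to 0.77), and the ratio was 0.58 (0.40 to 0.84) in IR. Apex1 stood at 49.3 CPM in macrophages and 32.1 CPM in NK cells of Control, a NK to macrophage ratio of 0.65 (0.46 to 0.90). In IR it stood at 27.4 CPM in macrophages and 40.0 CPM in NK cells. Fanca stood at 1.85 CPM in macrophages and 7.14 CPM in monocytes of Control, a ratio of 3.86 (1.97 to 7.57). Such differences were common between lineages: 6 members were higher in T cells than in macrophages of Control, against 17.9% of genes, and 2 were lower, against 16.4%. For NK cells 5 were higher and 2 lower, against 14.8% and 20.3%.

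**Figure D4:**
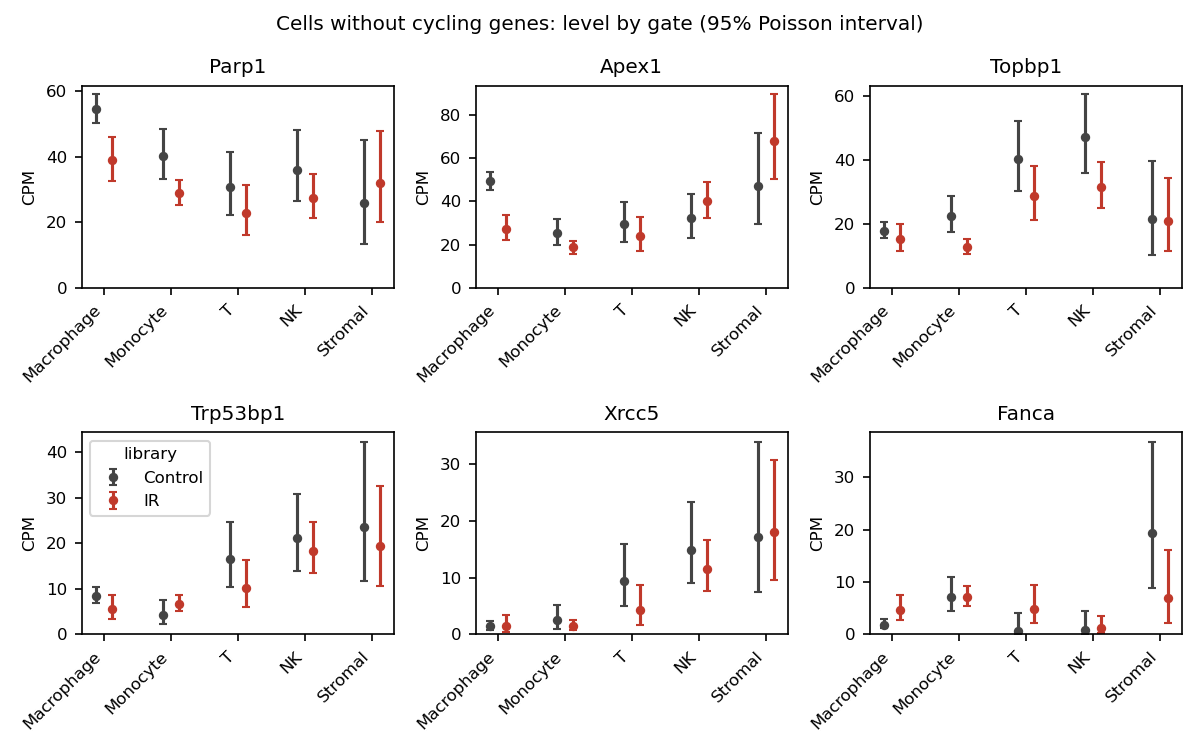
Level (CPM, y axes from 0) of 6 repair genes by gate (x axis) in cells without cycling genes, for Control (gray) and IR (red). Points are the CPM of 1 library and bars are 95% Poisson intervals. Xrcc5 is near 1.4 CPM in macrophages and 14.9 CPM in Control NK cells, while Parp1 is at 54.7 CPM in Control macrophages and 30.8 CPM in T cells.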

How the data were processed

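Raw UMI counts per gene and barcode, 1 unfiltered matrix per library, were deposited by the authors, who used the 10x 3′ v3.1 kit. The submitters' processing notes name Cell Ranger 6.0.1 and mm10, and the matrix header names Cell Ranger 4. The files held 48593879 UMIs in Control and 42406461 in IR. Barcodes with at least 1000 UMIs (4975 and 3507, of which 7 were shared) were kept at 200 or more genes and at most 25% mitochondrial UMIs, leaving 4679 and 3410. Gates and cycling calls were made on cells thinned at random to 1000 UMIs, and full counts were then summed per gate and library. Doublets were limited only by barring markers of other lineages from the gates. CPM, exact Poisson intervals and exact conditional intervals of ratios were computed with scipy 1.17.1 and run on simulated Poisson counts. Those counts held no variation between cells or in gate membership, so they do not show how the intervals cover such variation. Genes needed 20 UMIs over both pools. With 1 library per group no test was made, and intervals cover counting error only. Named genes were those past the 1.5-fold rule, those nearest to a ratio of 1, those that changed direction between pools, and the 3 largest of the other repair genes. Some of the other repair genes enter the counts and are not reported by name here. The members and lists were chosen with earlier results of these data known. Alternatives changed the cycling call, thinning, mitochondrial limit, doublets (Scrublet, scanpy 1.11.5), scaling (TMM, edgeR 4.0.16), minimum and free RNA. Gene spans are from GENCODE (GRCm38).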

Additional observations from a re-analysis of the deposited data

Results flagged for a closer look

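Lig1 pointed in opposite directions in different gates over all cells. Its log2 ratio of IR to Control was 0.40 in NK cells (46.96 and 62.0 CPM), -0.50 in macrophages (42.5 and 30.0 CPM) and -0.51 in stromal cells (83.1 and 58.4 CPM), each with an interval that excluded 0. Among cells without cycling genes it stood at 18.2 and 19.9 CPM in macrophages, 34.4 and 36.0 CPM in stromal cells and 23.5 and 42.1 CPM in NK cells. The direction of the summed members in stromal cells was not settled. Xrcc5 had a log2 ratio of 1.04 in macrophages (1.62 and 3.34 CPM, on 29 and 15 UMIs) and -1.07 in T cells (14.9 and 7.09 CPM). Of the 15 IR UMIs in macrophages, 9 came from 17 cycling cells. Macrophages without cycling genes held Xrcc5 at 1.39 and 1.44 CPM. The differences between gates were not tested, since each group had 1 library.

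Cycling cells outside the gates were not used in the comparisons above. There the members summed to 976 CPM (937.6 to 1016) in 158 Control cells and 1138 CPM (1091 to 1186) in 77 IR cells, so the IR library was higher in cycling cells whose lineage was not assigned. Control and IR stood at 493.7 and 469.7 CPM over all cells outside the gates, and at 343.0 and 315.1 CPM in those without cycling genes.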

How the results depend on the processing

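No paired analysis was possible because Control and IR each had a single library, and no replicate could be left out for that reason. Values here are log2 ratios of the summed members. With a cycling call at 2 or more UMIs, cycling over other cells gave 1.16 in Control macrophages, 0.86 in IR monocytes and 1.13 in IR T cells, and IR over Control in cycling monocytes gave -0.27. With every cell under 3 cycling UMIs counted as without, the ratio was 1.10 in Control macrophages, 1.13 and 1.12 in Control and IR T cells and 1.14 in Control stromal cells. Thinned to 2000 UMIs, it was 1.31 and 1.59 in Control and IR macrophages, 1.44 in Control monocytes and 1.59 in IR NK cells, and IR over Control in cycling cells was -0.00461 in macrophages and -0.43 in monocytes. Another random thinning gave 1.31 in Control macrophages, 1.69 in Control NK cells and 0.89 in Control stromal cells for cycling cells. It gave IR over Control ratios of -0.55 in macrophages, -0.0495 in T cells, 0.0733 in NK cells and, with the direction turned, 0.0895 in stromal cells. Within cycling cells it gave -0.21 in NK cells and, turned, 0.13 in stromal cells. It also turned Mre11a in cycling IR monocytes (-0.34) and H2afx in stromal cells, IR over Control (0.59). TMM scaling gave 1.12 in cycling IR monocytes, where it moved all genes by -0.38, and weighting IR cells to the Control share of cycling cells gave -0.16 in macrophages and -0.0812 in T cells. TMM moved all genes by -0.18 in cycling IR macrophages, -0.24 in cycling Control monocytes and -0.14 in cycling IR stromal cells, and by -0.20 and 0.11 between the libraries in cycling monocytes and NK cells. It turned the sign of the IR over Control ratio in NK cells, over all cells and in those without cycling genes, where the interval of the ratio held 0.

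The following were chosen after seeing the data. Cells with 0 cycling UMIs at 2000 UMIs as the lower pool gave 1.38 and 1.63 in Control and IR macrophages, 1.48 in Control monocytes, 1.54 and 1.64 in Control and IR NK cells and 1.08 in IR stromal cells. Leaving H2afx out of the sum gave 0.995 in macrophages, 0.67 in monocytes, 1.07 in T cells, 0.79 in NK cells and 1.14 in stromal cells of Control, 1.07 in IR NK cells, and -0.0512 for IR over Control in cycling macrophages. The median of 10 further thinnings was -0.24 for IR over Control in cycling stromal cells. A limit of 10% mitochondrial UMIs, removal of the 6% of cells with the highest Scrublet scores, subtraction of free RNA and, also chosen after seeing the data, leaving out shared barcodes moved none of the 25 summed ratios beyond its interval. The causes were not tested. Gate membership is 1 limit: cells in a gate shared between thinnings ran from 63.4% (IR stromal cells) to 89.2% (Control macrophages), and members such as Chek1, Fancd2 and Fanci had too few UMIs to compare in most pools outside macrophages.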
